A study of Mus musculus with 6 samples.

Results

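The DNA replication genes described here are 49 genes that license, unwind, prime, copy and join DNA, supply its nucleotides, drive entry into S phase or rebuild chromatin behind the fork. They were taken by gene symbol from the annotation of the array. For each gene the probe set that carried this symbol alone and had the highest mean over the 6 arrays was used. All 49 genes were measured, among 19938 genes with such a probe set.

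The samples are labelled as cortical progenitors derived from embryonic stem cells. Mouse stem cells of a 129SVEV line with a CTIP2:GFP knock-in were differentiated into neural lineage as floating aggregates (SFEBq). WNT and TGF/Activin/Nodal signaling were inhibited early. CTIP2 (gene Bcl11b) is a transcription factor of deep-layer cortical neurons, and the reporter, an IRES-GFP placed just after the stop codon of Ctip2, follows it wherever the gene is on. The knock-in kept its Neo cassette, and both fractions came from the same knock-in cells. Cells were sorted into CTIP2:GFP+ and CTIP2:GFP- fractions on days 11, 12 and 13, and RNA of each fraction and day was hybridised to 1 GeneChip Mouse Gene 1.0 ST array. The 3 days stood in as replicates of a fraction. With day as a block, the p-values measure how the difference between the fractions varied over the days. They do not measure the spread over separate cultures of a day. Whether the days came from a single differentiation run or from separate runs is not stated. The difference on a single day had no test.

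DNA replication is prepared in G1, when the origin recognition complex, CDC6 and CDT1 load the ring of MCM2 to MCM7 onto DNA. In S phase CDC45 and GINS join the ring to form the active helicase, primase and polymerase alpha lay down primers, and polymerases delta and epsilon copy the strands on the PCNA clamp. E2F transcription factors switch many of these genes on at the passage from G1 to S phase. In the developing cortex, radial glia and intermediate progenitors divide, while neurons leave the cycle and no longer replicate their DNA. In RNA of sorted cell populations, fewer cycling cells and less of an mRNA per cell cannot be told apart.

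Because E2F proteins bind in front of many replication genes, the promoters were read for the letters of an E2F site. RefSeq promoters (GRCm38.p6, 250 bases before to 50 after the start) were given for 40 of the 49 genes, with 48 promoters in all. The letters TTTCCCGC, TTTGGCGC, TTTCGCGC or TTTGCCGC, on either strand and with overlaps allowed, stood in 16 of these 48 promoters (33.3%), against 2.26% of all 32851 promoters and 1 of 24 promoters (4.17%) of genes of G2 and mitosis. The CCAAT letters stood in 60.4% of the replication gene promoters, 37.4% of all promoters and 87.5% of the G2 and mitosis promoters. The letters TTTGAA, searched for contrast, stood in 10.4%, 17.9% and 79.2%. Sequence upstream of the start is printed for Mcm6, Mcm5 and Rfc3, where a match lies outside every annotated gene. Mcm6 and Mcm5 were among the 5 genes with the largest differences, and the difference of Rfc3 was close to 0. Gins3 (difference -0.19) also had such a match and is not printed. The capitals mark the E2F letters. Mcm6 (chr1:128359706-128359955, minus strand) has 3 matches of which 2 overlap, Mcm5 (chr8:75109259-75109467, plus strand) has 2 that overlap in the 209 bases shown, which end 42 bases before the start because the rest lies in an annotated gene, and Rfc3 (chr5:151651209-151651458, minus strand) has 1 in the part printed.
Mcm6: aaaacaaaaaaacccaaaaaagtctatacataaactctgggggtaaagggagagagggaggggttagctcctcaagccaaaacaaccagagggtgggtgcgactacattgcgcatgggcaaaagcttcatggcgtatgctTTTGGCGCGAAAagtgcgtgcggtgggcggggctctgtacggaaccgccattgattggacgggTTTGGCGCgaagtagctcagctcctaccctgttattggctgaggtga
Mcm5: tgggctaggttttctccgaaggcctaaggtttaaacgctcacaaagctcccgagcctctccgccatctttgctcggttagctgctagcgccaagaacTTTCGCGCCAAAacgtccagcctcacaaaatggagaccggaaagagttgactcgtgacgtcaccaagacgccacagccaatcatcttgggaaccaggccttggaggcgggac
Rfc3: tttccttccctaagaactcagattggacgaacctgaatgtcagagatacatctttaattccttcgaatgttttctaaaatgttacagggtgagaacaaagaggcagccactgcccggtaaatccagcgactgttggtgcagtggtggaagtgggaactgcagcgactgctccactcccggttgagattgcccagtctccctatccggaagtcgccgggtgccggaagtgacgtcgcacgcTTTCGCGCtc
A match is a run of letters, not a bound site. The median difference between the fractions was -0.34 (log2) over the 16 genes with a match and -0.36 over the 24 without one.

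Before the results, 1 array has to be set apart. Over all probe sets the GFP- array of day 13 had the narrowest spread of signals (SD 1.11 against 1.29 to 1.48 on the other arrays) and the lowest correlations with the other arrays (r across probe sets 0.863 to 0.927). Its 20th percentile of signal, 4.86, was above the 4.53 to 4.70 of the others. Values without this array, and then without day as a block, are given for the counts. They are also given for each gene whose direction turned in that setting and for others that moved. In the GFP+ fraction Bcl11b itself was higher by 1.87 (SE 0.19, limma adjusted p = 0.0248), with signals of 8.76, 7.91 and 8.54 against 6.44, 6.27 and 6.88 on days 11, 12 and 13.

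To compare replication between the fractions, the difference was taken as GFP+ minus GFP- on the log2 scale. Most of the 49 genes had lower signals in GFP+ cells: the mean over 3 days was lower for 42 and higher for 7. The median difference was -0.31 (range -1.07 to 0.37), against -0.05 over all 19938 genes. The signals of 25 genes were lower in GFP+ cells on all 3 days, where 21.4% of all genes were, and those of 1 gene, Dnmt1, were higher on all 3 (16.9% of all genes). For 18 genes every GFP+ array was below every GFP- array (7.85% of all genes), and for 0 genes every GFP+ array was above (9.05% of all genes).

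Only E2f1 passed the test that took day as a block, at a Benjamini-Hochberg adjusted p under 0.05 over all genes. It was lower in GFP+ cells, where 0.567% of all genes were called lower, and 0 replication genes were called higher (0.797% of all genes). At an unadjusted p under 0.05 limma gave 20 genes lower (5.96% of all genes) and 0 higher (9.58%). These 20 had 95% intervals wholly below 0. The SE of a difference lay between 0.13 and 0.27 (median 0.17, n = 3 per fraction), so that a mean difference of the median size could not be told from 0 for a single gene. Without the GFP- array of day 13 and without the block, 47 of 49 genes were lower, with a median of -0.43.

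**Figure D1:**
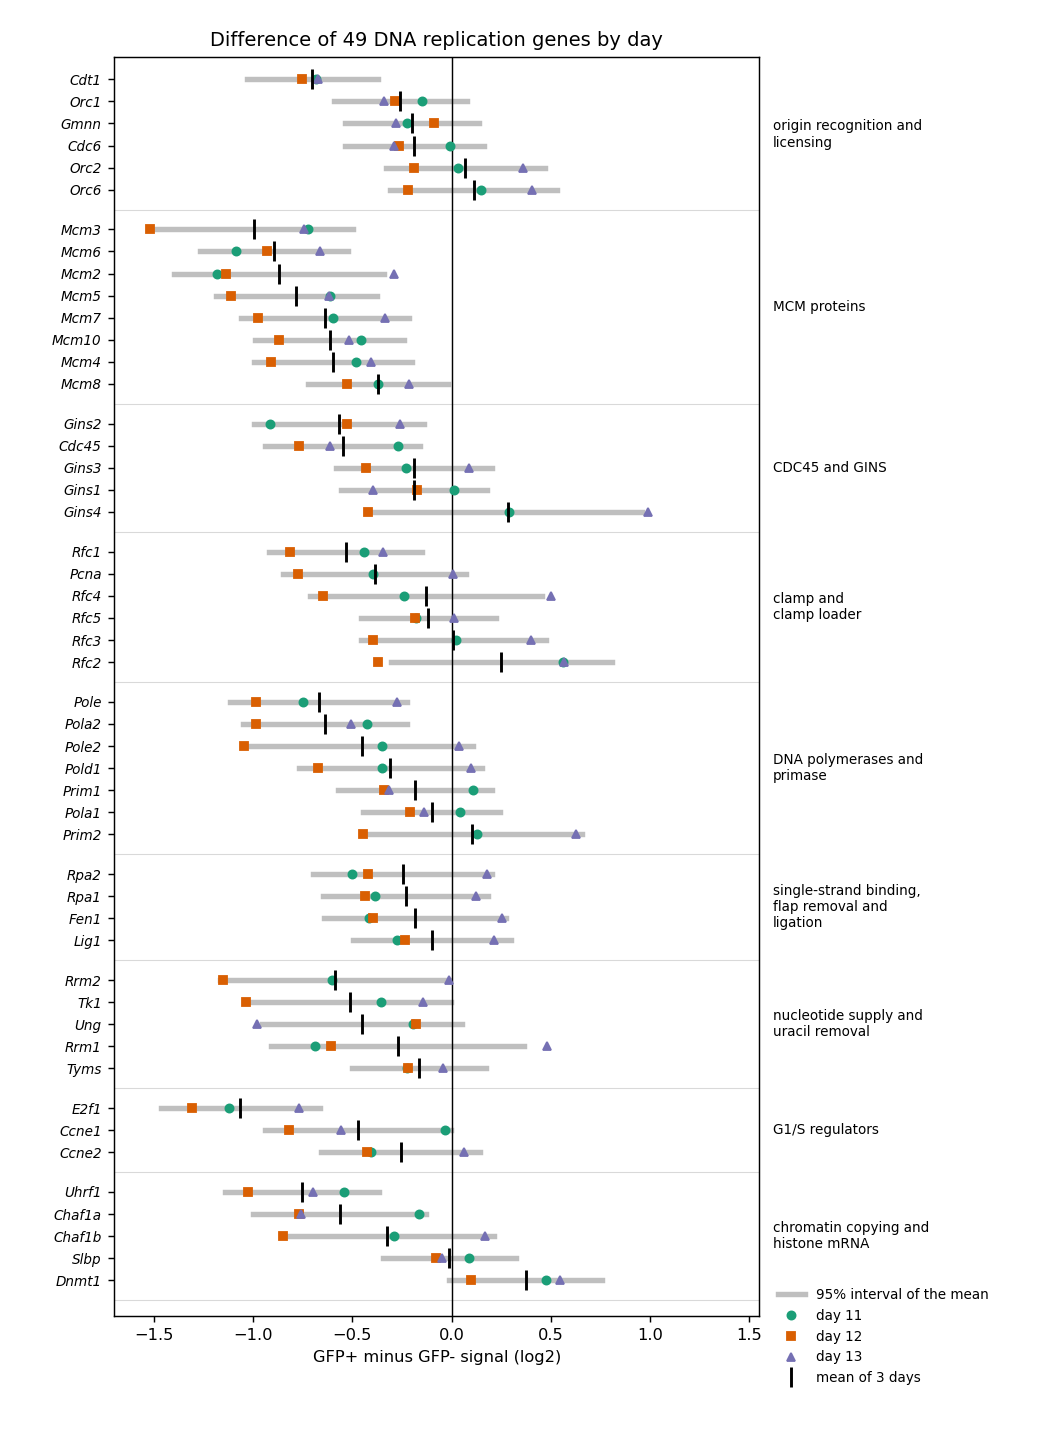
GFP+ minus GFP- difference of each of the 49 genes (log2, horizontal axis), grouped by role and ordered by the mean; symbols are the 3 days, black ticks the mean and grey bars its 95% interval from limma. The MCM genes and E2f1 lie left of 0 on every day, while many genes of the clamp loader and of flap removal lie right of 0 on day 13.

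**Figure D2:**
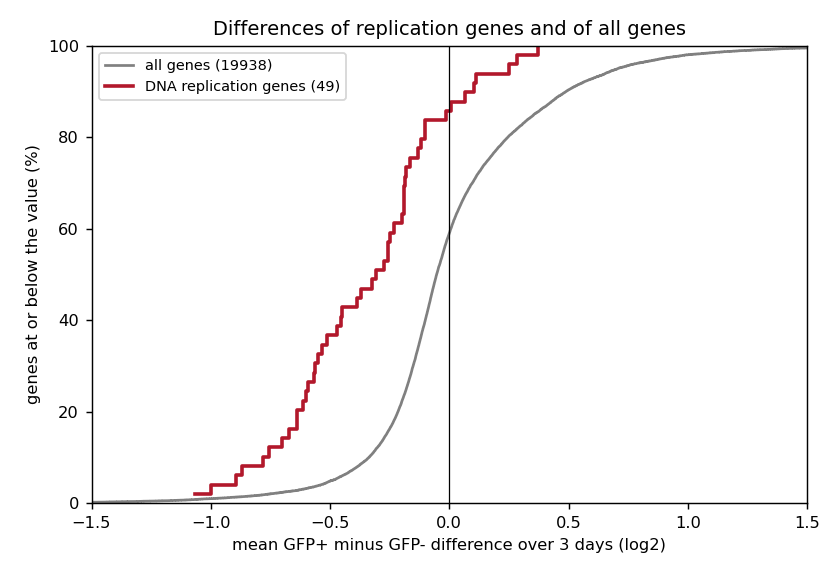
Share of genes (%, vertical axis) at or below a given mean GFP+ minus GFP- difference (log2, horizontal axis) for the 49 replication genes and for all 19938 genes; the axis ends at -1.5 and 1.5, and a small share of all genes lies beyond. The replication genes are shifted to the left, with medians of -0.31 and -0.05.

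E2f1, a transcription factor that switches on S phase genes, had signals of 5.95, 6.43 and 6.11 in GFP+ cells and 7.07, 7.74 and 6.88 in GFP- cells on days 11, 12 and 13. The highest GFP+ array was below the lowest GFP- array. The difference was -1.07 (SE 0.16, adjusted p = 0.0498), a 2.09-fold lower signal in GFP+ cells. This call was at the edge of the threshold: the difference stayed between -1.24 and -0.94 in 13 alternative analyses, but the adjusted p ranged from 0.00728 to 0.462 and 7 of the 13 lost the call. Without day as a block the adjusted p was 0.133, without day 11 it was 0.0619 and without day 13 it was 0.0565. Cyclin E, with CDK2, pushes cells into S phase. The signals of Ccne1 were 6.18, 6.37 and 5.95 in GFP+ and 6.22, 7.19 and 6.51 in GFP- cells. The difference of Ccne1 was close to 0 on day 11 (-0.03) and lay at -0.82 and -0.56 on the later days, with a mean of -0.47 (adjusted p = 0.318). Ccne2 differed by -0.41 and -0.43 on days 11 and 12 and by 0.06 on day 13.

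The MCM genes made up the role with the lowest median difference, -0.71 over 8 genes, and all 8 were lower in GFP+ cells on each of the 3 days. For 7 of the 8 the GFP+ and GFP- arrays did not overlap, and all 8 had an unadjusted p under 0.05, but 0 passed the adjusted threshold. The 6 subunits of the helicase ring had a median of -0.83, with -0.67, -1.05 and -0.51 on days 11, 12 and 13. Mcm3 had signals of 5.64, 5.67 and 5.91 in GFP+ and 6.37, 7.20 and 6.65 in GFP- cells, a difference of -0.997 (SE 0.20, adjusted p = 0.0883). The GFP+ arrays of Mcm3 were nearly level, and its largest gap, -1.52 on day 12, came with the highest GFP- signal. Mcm6 had 5.67, 6.13 and 6.10 against 6.76, 7.07 and 6.77, a difference of -0.89 (SE 0.15, adjusted p = 0.0615). Mcm2 had 6.26, 6.91 and 6.86 against 7.44, 8.05 and 7.15, a difference of -0.87 (SE 0.22, adjusted p = 0.129), which narrowed from -1.18 and -1.14 to -0.29 on day 13. Mcm5 had 6.81, 7.26 and 7.12 against 7.43, 8.38 and 7.74, a difference of -0.78 (SE 0.16, adjusted p = 0.0935). In each of these 4 genes the fractions did not overlap. The 2 remaining ring subunits differed by -0.64 (Mcm7) and -0.60 (Mcm4), and Mcm4 was the member whose fractions overlapped, since its GFP- signal on day 13 (6.60) was below its GFP+ signal on day 12 (6.76). Mcm10, which helps to activate the helicase, differed by -0.61. Mcm8, which acts mainly in recombination repair, had the smallest difference of the 8, -0.37.

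**Figure D3:**
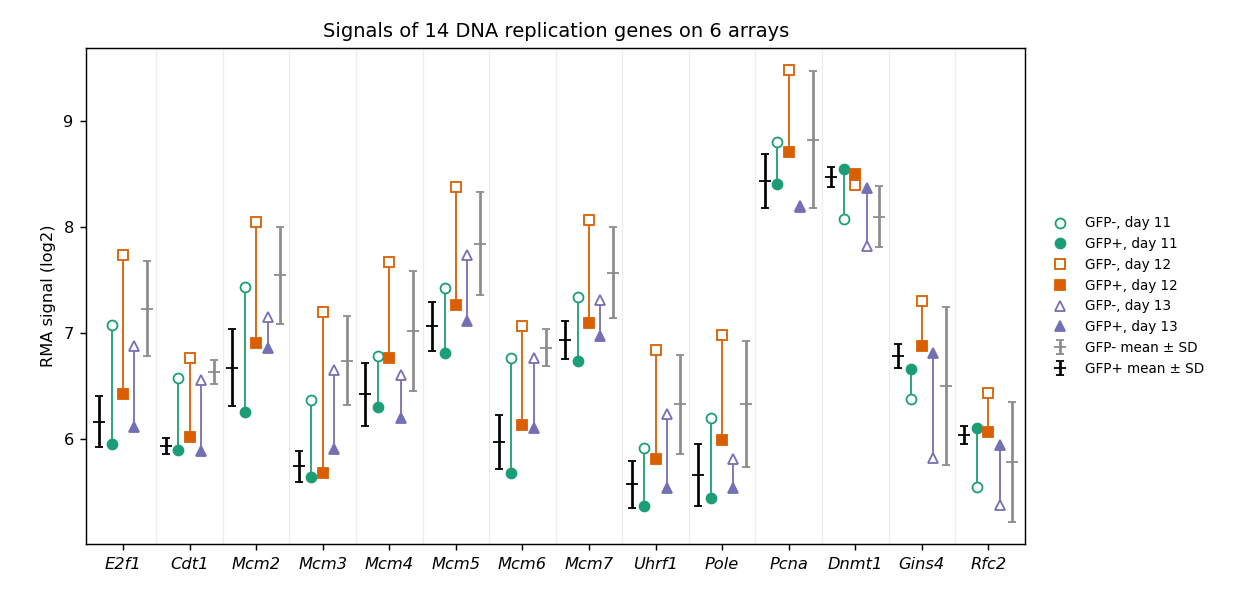
RMA signal (log2, vertical axis) of 14 replication genes on the 6 arrays, with filled symbols for GFP+ and open symbols for GFP- cells; vertical lines join the fractions of a day, and the bars beside them give the mean and SD over 3 days. For E2f1, Cdt1, Mcm2, Mcm3, Mcm5 and Mcm6 every filled symbol lies below every open one, while for Dnmt1 the filled symbol is the higher one on each day.

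The genes that load the ring onto origins differed less. Their median was -0.19 over 6 genes. Cdt1, the loading factor that is destroyed once S phase begins, stood apart: its signals were 5.89, 6.02 and 5.89 in GFP+ and 6.57, 6.77 and 6.56 in GFP- cells, and its difference, -0.70 (SE 0.13, adjusted p = 0.0754), hardly varied between the days (-0.68, -0.75 and -0.67). When the day 13 GFP- array and the block were left out, Cdt1 passed the threshold (difference -0.74, adjusted p = 0.0486). Gmnn, which encodes the CDT1 inhibitor geminin, differed by -0.20. The origin recognition subunits did not share a direction, with -0.26 for Orc1, 0.07 for Orc2 and 0.11 for Orc6, and the loader Cdc6 differed by -0.19. The 95% intervals of Gmnn, Cdc6 and the 3 origin recognition genes included 0. Without the day 13 GFP- array and the block, Orc2 and Orc6 turned to -0.15 and -0.084.

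CDC45 and the GINS complex turn the loaded ring into the moving helicase, and their 5 genes had a median of -0.19. Cdc45 was level in GFP+ cells (5.31, 5.33 and 5.35) and higher in GFP- cells (5.57, 6.10 and 5.96), a difference of -0.55 (adjusted p = 0.176). Gins2 differed by -0.57 (adjusted p = 0.198), Gins3 by -0.19 and Gins1 by -0.19. Gins4 ran the other way on days 11 and 13: its signals were 6.66, 6.88 and 6.81 in GFP+ and 6.38, 7.30 and 5.82 in GFP- cells. Its GFP+ arrays lay within the range of its GFP- arrays, and the mean difference was 0.28 (SE 0.27, adjusted p = 0.677). The mean difference of Gins4 became -0.068 without day 13 and -0.055 without the day 13 GFP- array and the block.

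The clamp PCNA and its loader, the RFC complex, had a median of -0.12, with -0.21, -0.52 and 0.21 on days 11, 12 and 13. Pcna had 8.41, 8.71 and 8.20 in GFP+ and 8.81, 9.48 and 8.19 in GFP- cells, with a difference of -0.77 on day 12 and of 0.01 on day 13. Its mean difference was -0.39 (SE 0.19, adjusted p = 0.416). Rfc1, the large loader subunit, was lower in GFP+ cells on all 3 days (-0.44, -0.82 and -0.35). The small subunits were not, with mean differences of 0.25 for Rfc2, 0.01 for Rfc3, -0.13 for Rfc4 and -0.12 for Rfc5. Without the day 13 GFP- array and the block the values were 0.048 for Rfc2, -0.23 for Rfc3, -0.41 for Rfc4 and -0.19 for Rfc5, so that Rfc3 turned and Rfc2 came close to 0. Without day 12, Rfc4 turned to 0.13. Rfc2 had 6.10, 6.06 and 5.95 in GFP+ and 5.54, 6.43 and 5.38 in GFP- cells (SE 0.23, adjusted p = 0.660). Its GFP+ arrays lay between the day 12 GFP- array and the 2 other GFP- arrays.

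Among the 7 genes of polymerases and primase the median difference was -0.31. Pole, the catalytic subunit of the leading strand polymerase epsilon, had 5.45, 5.99 and 5.54 in GFP+ and 6.20, 6.98 and 5.81 in GFP- cells, a difference of -0.67 (SE 0.18, adjusted p = 0.155). The fractions of Pole overlapped, because the GFP- array of day 13 was below the GFP+ array of day 12. Pole2, the second epsilon subunit, differed by -1.04 on day 12 and by 0.03 on day 13. Pola2, the accessory subunit of polymerase alpha, differed by -0.64 and was lower in GFP+ cells on all 3 days (-0.42, -0.99 and -0.51), while its catalytic partner Pola1 differed by -0.10. Pold1, the catalytic subunit of polymerase delta, differed by -0.31, and the primase subunits by -0.18 (Prim1) and 0.10 (Prim2). Prim2 turned to -0.19 without the day 13 GFP- array and the block.

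The genes for single-strand binding (Rpa1, Rpa2), flap removal (Fen1) and ligation (Lig1) gave 4 like profiles. Each was lower in GFP+ cells on days 11 and 12 (medians -0.40 and -0.41) and higher on day 13 (median 0.20). Mean differences were -0.25 for Rpa2, -0.23 for Rpa1, -0.19 for Fen1 and -0.10 for Lig1, all with intervals that included 0. For 3 of the 4, Rpa2, Fen1 and Lig1, the GFP- array of day 13 was the lowest of the 6 arrays.

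Nucleotide supply and uracil removal had a median of -0.45 over 5 genes. Ribonucleotide reductase makes deoxynucleotides, and its S phase subunit Rrm2 had 6.62, 7.49 and 7.43 in GFP+ and 7.23, 8.64 and 7.45 in GFP- cells, with differences of -0.60, -1.15 and -0.02 on the 3 days (mean -0.59, adjusted p = 0.310). The large subunit Rrm1 had 6.82, 7.73 and 7.32 against 7.51, 8.34 and 6.84, and its difference turned from -0.69 and -0.61 to 0.48. Tk1, the thymidine kinase of S phase, differed by -0.51 (adjusted p = 0.318), with -1.03 on day 12, and its other probe set gave -0.50. Tyms, thymidylate synthase, differed by -0.16. Ung, which removes uracil from DNA, differed by -0.45, and here the gap was on day 13 (-0.98), where its GFP- signal was 6.02 against 5.04 to 5.32 on the 5 other arrays. Without that GFP- array and the block Ung differed by -0.21.

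The genes that copy chromatin split. Uhrf1, which brings DNMT1 to newly copied DNA, had 5.37, 5.81 and 5.54 in GFP+ and 5.91, 6.84 and 6.24 in GFP- cells, with no overlap and a difference of -0.75 (SE 0.16, adjusted p = 0.0916). Dnmt1, the maintenance DNA methyltransferase, had 8.55, 8.50 and 8.37 in GFP+ and 8.08, 8.40 and 7.82 in GFP- cells, and was the gene with the highest difference of the 49 (0.37, SE 0.16, adjusted p = 0.338, 95% interval -0.01 to 0.76). The lowest GFP+ array of Dnmt1 was just below its highest GFP- array. The size of this difference depended on the processing: it was 0.087 after a further quantile normalization, below Rfc2 and Gins4 in that setting, and 0.23 without the day 13 GFP- array and the block. Chaf1a and Chaf1b, subunits of the chromatin assembly factor, differed by -0.56 and -0.32, and Slbp, which binds histone mRNA, by -0.01. For Slbp the sign turned when each array was centred on its median, without day 12 and without day 13. The other probe set of Slbp gave -0.15.

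**Figure D4:**
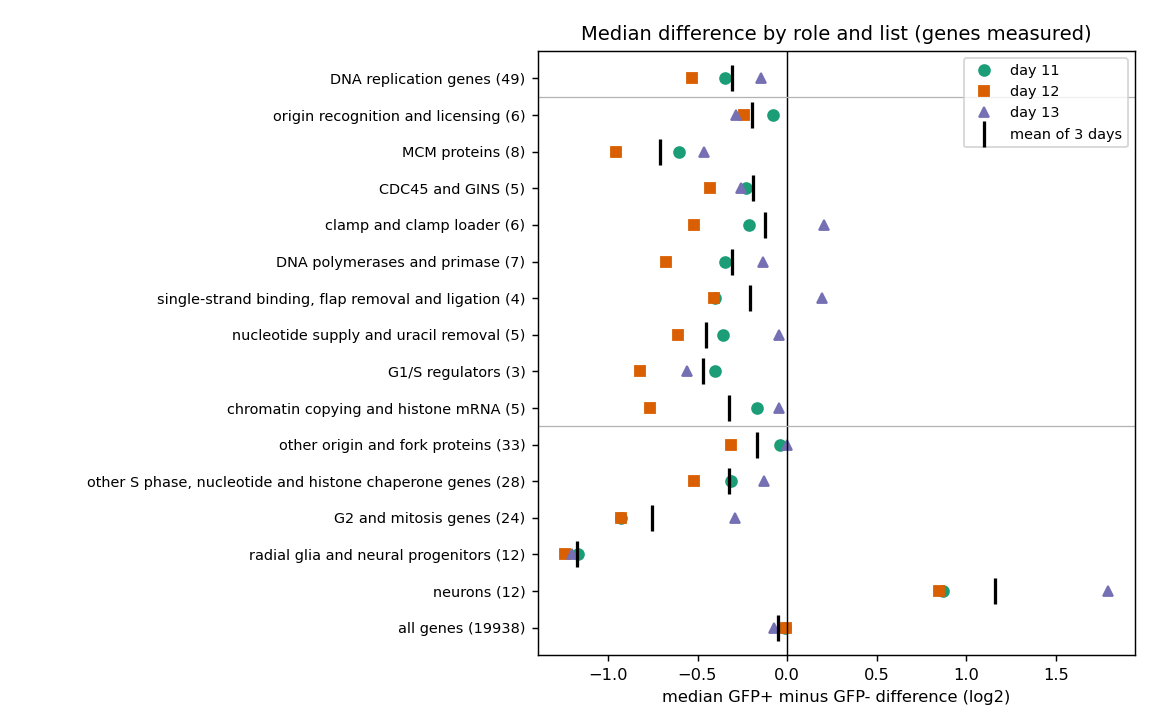
Median GFP+ minus GFP- difference (log2, horizontal axis) of the replication genes, of their 9 roles and of other lists, with the number of genes measured in brackets; symbols are the days and black ticks the medians of the mean over 3 days. The MCM genes have the lowest medians of the roles on days 11 and 12, and 2 roles have medians above 0 on day 13.

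The signals also moved between the days, mainly in GFP- cells. The SD over days was larger in GFP- than in GFP+ cells for 45 of the 49 genes (91.8%) and for 88.1% of all genes. The median signal of the 49 genes was 6.22, 6.79 and 6.03 in GFP- cells and 5.89, 6.07 and 5.95 in GFP+ cells on days 11, 12 and 13. The GFP- array of day 12 was the highest of the GFP- arrays for 41 genes (39.6% of all genes) and the highest of all 6 for 40 (24.9% of all genes). In GFP- cells day 12 exceeded the mean of days 11 and 13 by a median of 0.61, and in GFP+ cells by 0.14. The highest of the GFP+ arrays was day 12 for 29 genes (31.3% of all genes). With 1 array per fraction and day these steps had no test, and the day and the array cannot be told apart.

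The gap between the fractions followed the same order. It was below 0 for 38, 48 and 29 genes on days 11, 12 and 13, with medians of -0.35, -0.53 and -0.14, where the medians of all genes were -0.01, -0.00 and -0.07. Over 2-fold lower in GFP+ cells were 3 genes on day 11 (1.3% of all genes), 8 on day 12 (2.43%) and 0 on day 13 (2.29%). The 3 of day 11 were Mcm2, Mcm6 and E2f1. The 8 of day 12 were Mcm2, Mcm3, Mcm5, E2f1, Pole2, Rrm2, Tk1 and Uhrf1. In the mean over the days, E2f1 alone was over 2-fold lower (1.02% of all genes), just ahead of Mcm3, and 0 genes were over 2-fold higher (1.97% of all genes). A linear change of the difference with the day was not found for any member: the lowest adjusted p for the slope was 0.904, with 0.0351% of all genes called. At an unadjusted p under 0.05 limma gave 1 gene, Rrm1, with a slope of 0.59 per day.

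The day 13 GFP- array, whose signals were compressed, was the lowest of the 6 arrays for 13 replication genes (31.2% of all genes), among them Pcna, Rfc2, Rfc3, Rfc4, Gins4, Rpa2, Fen1, Lig1 and Dnmt1. Their mean signals stood at the 36.1 to 96.1 percentile of all probe sets (median 69.6). It was the highest of the 6 for 6 genes (37.9% of all genes), Orc1, Cdc6, Gmnn, Gins1, Ung and Chaf1a, at the 20.1 to 68.9 percentile (median 32.7). Of the 7 genes with a mean difference above 0, 5 (Orc2, Orc6, Gins4, Rfc3 and Prim2) were below 0 without this array and the block, and 2, Rfc2 and Dnmt1, stayed above. Several genes with a mean below 0 moved further from it, among them Pcna (-0.71), Pole2 (-0.70), Rrm1 (-0.63) and Fen1 (-0.42). The 5 genes that turned were also above 0 on day 11 (0.02 to 0.29) and were below 0 on day 12. Leaving this array out also dropped the block. With all 6 arrays and no block, 42 genes were lower and the median was -0.31, as with the block, and no gene turned. The same 5 genes also turned when day 13 was left out and the block was kept. The array and the day cannot be told apart. The part of the compression in the day 13 differences was not tested. The spread over days was wider in GFP- than in GFP+ cells, with median SDs of 0.41 and 0.14 for the replication genes and 0.29 and 0.11 for all genes.

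**Figure D5:**
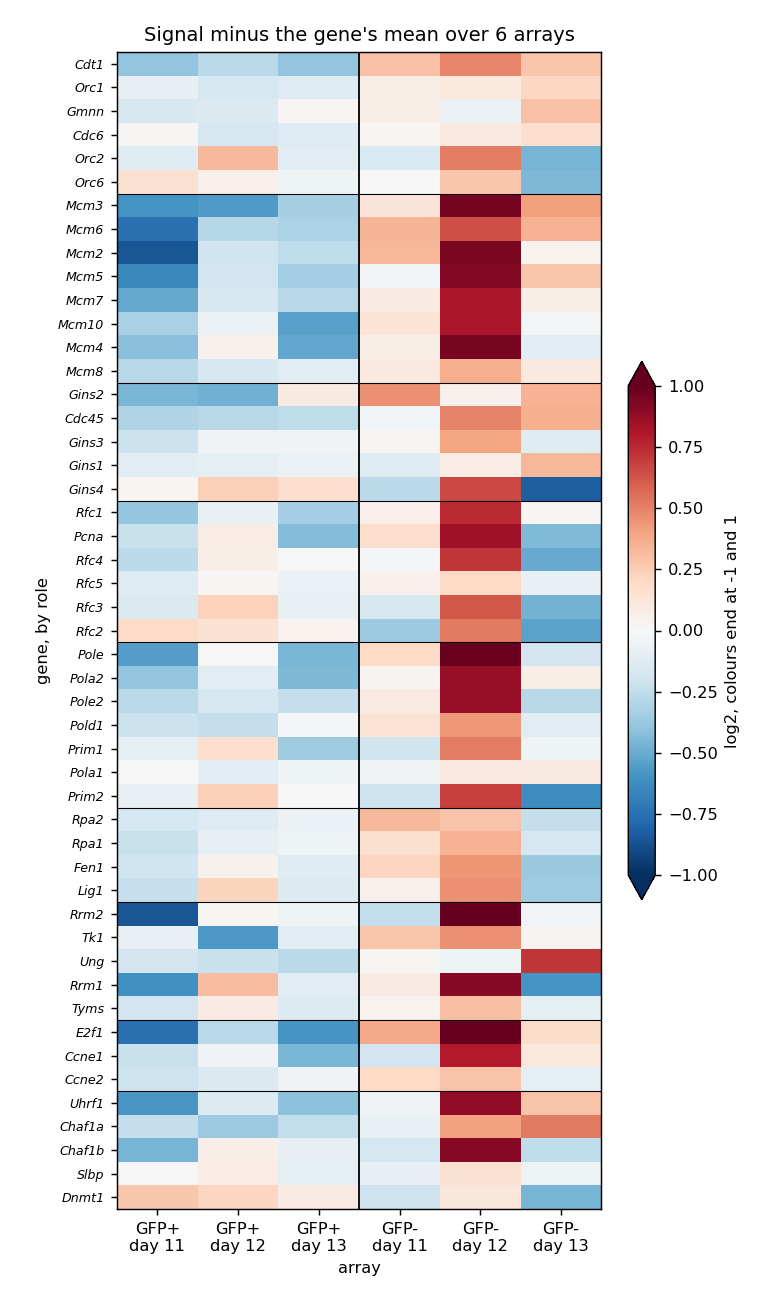
Signal of each of the 49 genes on each array minus the mean of the gene over the 6 arrays (log2, colour, with the scale ending at -1 and 1); rows are grouped by role, with GFP+ arrays on the left and GFP- arrays on the right. The day 12 GFP- column is the reddest, being the highest of the 6 for 40 genes, while the day 11 GFP+ column is the lowest for 20.

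To place the 49 genes within the cell cycle, lists of other genes were read in the same way. Of 33 other origin and fork genes, 0 passed the test and 22 were lower in GFP+ cells (median -0.17). At an unadjusted p under 0.05 limma gave 7 of the 33 lower (5.96% of all genes) and 1 higher (9.58%). Ticrr, which works with TOPBP1 to start origins, had the largest difference, -0.94 (adjusted p = 0.113), Topbp1 itself differed by -0.78 (adjusted p = 0.0623), and the origin recognition subunit Orc3 by 0.45. Of 28 other S phase, nucleotide and histone chaperone genes 0 passed and 23 were lower (median -0.32). At an unadjusted p under 0.05 limma gave 11 of the 28 lower (5.96% of all genes) and 0 higher (9.58%). E2f8, a repressor of the E2F family, differed by -1.14 (adjusted p = 0.0523). Fbxo5, an inhibitor of the anaphase-promoting complex, differed by -0.93 (-0.63 without the day 13 GFP- array and the block). Of 24 genes of G2 and mitosis all 24 were lower, 20 of them on all 3 days (21.4% of all genes), with a median of -0.75. The test called 1 of the 24 lower (0.567% of all genes), Cdca8 of the chromosomal passenger complex (-0.93, adjusted p = 0.0454). The proliferation marker Mki67 differed by -1.09 (adjusted p = 0.0584). Taken by day, the G2 and mitosis medians were -0.92, -0.93 and -0.29, with the last, that of day 13, nearest to 0.

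Of 14 genes of cell cycle exit, 12 were lower in GFP+ cells by the mean and 2 higher, with a median of -0.23. The test called 1 lower (0.567% of all genes) and 1 higher (0.797%). Cdk5r1, the activator of the neuronal kinase CDK5, was higher in GFP+ cells by 1.20 (SE 0.17, adjusted p = 0.0445), and cyclin D1 (Ccnd1), a driver of G1 that this list also holds, had a difference of -1.81 (SE 0.17, adjusted p = 0.0247). The CDK inhibitor Cdkn1c and the antiproliferative gene Btg2 were not higher in GFP+ cells, with differences of -1.29 (adjusted p = 0.0665) and -1.12 (adjusted p = 0.156).

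The fractions also differed in neuronal and progenitor markers. Of 12 neuronal markers 3 were called higher in GFP+ cells (0.797% of all genes) and 0 lower. The 3 were Map2, Myt1l and Syt1, by 0.92, 1.94 and 2.34. The median of the 12 was 1.16 (0.87, 0.85 and 1.79 on days 11, 12 and 13). By the mean 11 were higher and Nefm was lower (-0.25). On day 11 Nefl, Nefm and Elavl4 were lower (-0.74, -0.82 and -0.13). The summed level of the 12 neuronal markers (log2 of the sum) was 13.1 to 13.5 in GFP+ and 11.4 to 12.5 in GFP- cells. Of 12 markers of radial glia and neural progenitors 6 were called lower in GFP+ cells (0.567% of all genes) and 0 higher. The median of these 12 was -1.17 and nearly the same on each day (-1.16, -1.24 and -1.20). By the mean 11 were lower, with Slc1a3 lowest at -2.72 (limma adjusted p = 0.0240). Sox1 was higher (0.06, with 1.13 on day 11), and Fabp7 was at 0.06 on day 12. The summed level of the 12 progenitor markers was 12.3 to 13.2 in GFP+ and 13.4 to 13.8 in GFP- cells. The part of this make-up of the fractions in the replication differences was not tested. Of the lists for telencephalon, pluripotent cells, fibroblasts, endothelium and epithelium (5, 6, 7, 5 and 6 genes measured), 0 genes passed the test. An unadjusted p under 0.05 was given by limma for 4: Six3 (-0.55), Pdgfra (1.26), Pdgfrb (-0.77) and Pecam1 (-0.40). At this threshold limma gave 5.96% of all genes lower and 9.58% higher. The summed level of the 6 pluripotency markers was 7.22 to 7.42 in GFP+ and 7.23 to 7.88 in GFP- cells. Its GFP- maximum was on day 13, where Pou5f1 was at 5.79 against 4.55 to 4.71 on the 5 other arrays. The sums for telencephalon (9.47), fibroblasts (9.02), endothelium (7.77) and epithelium (8.55) were also highest on this array, whose signals were compressed. It was the highest of the 6 for 37.9% of all genes.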

How the data were processed

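Total RNA of the sorted fractions was read on 6 Affymetrix Mouse Gene 1.0 ST arrays, whose number limits the precision. The authors deposited log2 signals of 28853 probe sets, calculated with RMA16 in GeneSpring; whether this was done on all arrays together is not stated. These values were used as deposited. Of the probe sets, 21789 had 1 gene symbol in the platform annotation, 1621 had several and 5443 had none, and the 19938 genes named by the first kind were analysed, each by its probe set of highest mean.

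Fractions were compared with limma (version 3.58.1, R 4.3.3; lmFit and eBayes) on log2 values with day as a block (2 residual degrees of freedom), with p-values adjusted over all genes (Benjamini-Hochberg, threshold 0.05). The slope of the difference per day was fitted with 1 residual degree of freedom. The scripts were tested on simulated data. The day pairs the arrays, since both fractions were sorted on it: deviations from the fraction means correlated across genes with r of 0.112, 0.558 and 0.368 within days 11, 12 and 13. The GFP+ array of day 11, however, had a higher r (0.297) with day 13 GFP-.

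The 49 genes, the other lists and the markers were chosen with earlier results of these data known. Given in full are genes past the test, the 8 with the largest differences below 0, and 3 with differences above 0; other members are named by role. Promoters and motif shares come from RefSeq tables. Alternatives covered the block, each day and the day 13 GFP- array left out, centring, quantile normalization, the mean of probe sets, filters on dim genes, trended and robust eBayes, the t-test that the methods name, and probe sets in place of genes.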

Additional observations from a re-analysis of the deposited data

How the results depend on the processing

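The median difference of the 49 genes kept its direction in all 13 alternatives, between -0.45 and -0.19, and moved by less than its SD of 0.19 over the days. The count of replication genes called lower in GFP+ cells, 1 in the analysis as reported, was small and moved with the setting. It was 0 with no replicate block, with median centring of each array, with the methods' t-test and with probe sets in place of genes (limma's unadjusted p under 0.05 gave 16 lower with no replicate block, 16 with centring and 20 with probe sets, and the t-test gave 8). It was 3 with a filter at the 20th percentile (Mcm3, Mcm6 and E2f1), 5 with a filter at the median (Mcm2, Mcm3, Mcm5, Mcm6 and E2f1, with 38 of the 49 genes left and fewer genes tested), and 4 with trended and robust eBayes (Mcm3, Mcm6, E2f1 and Uhrf1). When each day was left out in turn it was 0 to 2: Mcm3 without day 11, Mcm6 and E2f1 without day 12, and 0 without day 13. Without day 13, 28 genes were lower at an unadjusted p under 0.05 from limma. The share of all genes at this unadjusted threshold was taken only in the analysis as reported (5.96% lower and 9.58% higher). The unadjusted counts of the alternatives therefore have no background beside them. Without day 13, with centring and with the t-test 0 genes of all were called. The count over 2-fold lower, 1 as reported, was 5 after a further quantile normalization, 3 with no replicate block and without the day 13 GFP- array, and 0 to 4 when a day was left out. The difference of Gins4 turned from 0.28 to -0.068 without day 13, against a highest value of 0.64 without day 12, and to -0.055 with no replicate block and without the day 13 GFP- array. Orc2, Orc6, Rfc3 and Prim2 also turned in both of these settings, Slbp without day 12, without day 13 and with centring, and Rfc4 without day 12. The difference of Dnmt1, 0.37 as reported, was 0.087 after quantile normalization. Without day 12, Gins4, Rfc2 and Dnmt1 were higher in GFP+ cells at an unadjusted p under 0.05. Apart from where a value or the construction of the alternative shows it, the cause was not tested. Of all 19938 genes, 113 were called lower and 159 higher as reported, and 41 and 84 with no replicate block. Trended and robust eBayes gave 510 and 549. The counts were 171 and 381 without day 11 and 229 and 930 without day 12. After quantile normalization 52 were called higher. The filters left fewer genes to test. At the 20th percentile 226 of 16746 were called lower and 387 higher, and at the median 337 of 10788 lower and 703 higher. Arrays with 3 days per fraction limited what single genes could show.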
